A study of Mus musculus with 12 samples.

Results

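Mitochondrial ribosomal proteins are encoded in the nucleus, made in the cytosol and imported into mitochondria, where they form the large and the small subunit of the mitochondrial ribosome. The members were the genes whose name on the array begins with Mrpl or Mrps followed by a number and at most 1 further letter. These were 125 of the array's 41174 probes, for 75 genes. After a filter on dim probes, 106 of the 125 probes remained and 73 of the 75 genes could be tested, among 15825 genes with a test. Mrpl9 and Mrps27 had no probe that passed and have no value here. Mrpl42, Mrpl57 and Mrpl58 carry older names in the files, fall outside the name pattern and are described with the related genes.

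The mitochondrial ribosome translates only the messenger RNAs of mitochondrial DNA, which encode core subunits of the respiratory chain and of the ATP synthase. Part of its proteins have counterparts in bacterial ribosomes, and the others are found only in mitochondria. In Leydig cells, the testosterone-producing cells between the tubules of the testis, the first step of steroid synthesis takes place inside mitochondria, where cholesterol is cleaved by Cyp11a1 after import that depends on Star.

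Two-colour Agilent arrays compared Leydig cells cut by laser capture from frozen testis sections of male C57BL/6J mice, 21 weeks old at sampling. One group was gavaged for 21 days with corn oil containing di-(2-ethylhexyl) phthalate (DEHP), which softens plastics, at a daily dose of 200 mg per kg. The other was gavaged with the oil alone (vehicle). Arrays of 2 DEHP mice, numbered 1 and 4 in the labels, and of 3 vehicle mice, numbered 1, 2 and 4, were used, every DEHP mouse being paired with every vehicle mouse and each pair run with the dyes swapped, so 12 arrays stand for 5 animals. RNA came from a single cap per animal and was amplified for 2 rounds, so each animal is 1 extract. In such bulk RNA, fewer cells of a type and less RNA per cell cannot be told apart.

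Values below are log2 values of 1 probe per gene, given for each mouse against the average over the 5 mice, and differences are DEHP minus vehicle on the log2 scale. They rank mice for 1 probe and say nothing of one gene's level against another's. On the 12 arrays, 45.4% to 54.4% of red spots and 35.5% to 46.1% of green spots were well above background. The Leydig cell marker list was measured in full (12 of 12 genes passed, 7 of them well above background on all arrays), but all 19 spermatid markers passed too, 17 on all arrays, and none of either list was below background throughout.

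No mitochondrial ribosomal protein gene passed the test between DEHP and vehicle mice (limma, adjusted p under 0.05), as for all 15825 genes, of which 0 (0%) passed. The question was whether exposure changed this gene family, and with 2 against 3 mice the 95% interval of a member's difference reached a median of 0.62 log2 units to either side. Of the 73 members, 56 (76.71%) had a difference below 0 and 17 above, with a median of -0.13. Over all genes tested 51.65% lay below 0 and the median was -0.01. Members ran from -0.58 (Mrps25) to 0.60 (Mrps36), and the interval of 72 of the 73 included 0. Only 3 members differed by more than 0.5 in either direction, and 20 by less than 0.1.

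The lean below 0 depended on DEHP mouse 4 and varied with the vehicle mouse. The median over the members was 0.05 in DEHP mouse 1 and -0.20 in DEHP mouse 4, against 0.04, -0.10 and 0.12 in vehicle mice 1, 2 and 4. DEHP mouse 1 therefore lay inside the range of the vehicle mice and DEHP mouse 4 below it. Without DEHP mouse 4 the median difference was 0.01 and 38 of 73 members lay above 0. Without DEHP mouse 1 it was -0.25, with 15 above. Leaving out vehicle mouse 4 gave a median of -0.09 with 27 above. By pair, DEHP mouse 4 had member medians of -0.26, -0.02 and -0.39 against vehicle mice 1, 2 and 4. DEHP mouse 1 had -0.01, 0.11 and -0.09 against the same mice.

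**Figure D1:**
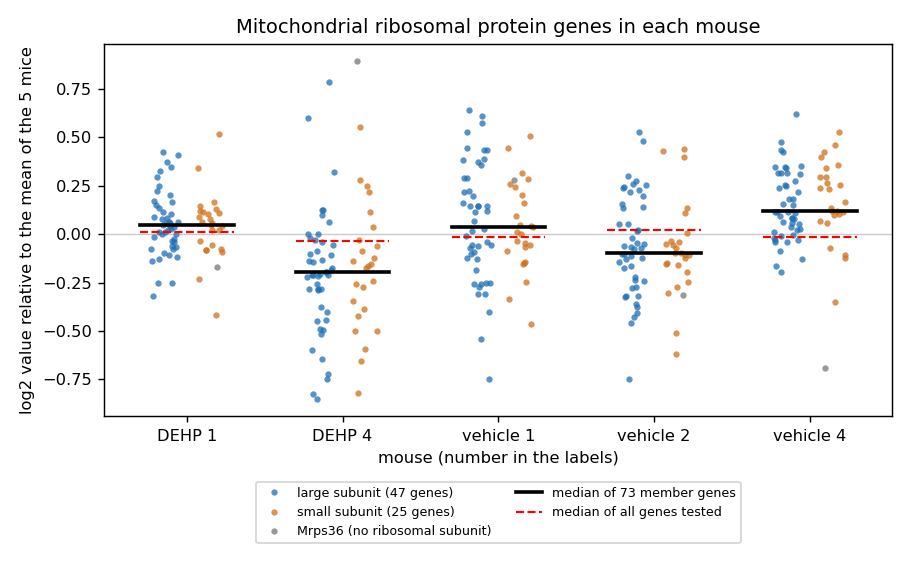
Log2 value of each of the 73 member genes (points; 47 of the large subunit, 25 of the small subunit and Mrps36) in each of the 5 mice, relative to the mean of the mice, with the median over the members (solid line) and over all genes tested (dashed line). The member median is lowest in DEHP mouse 4 (-0.20) and highest in vehicle mouse 4 (0.12), and DEHP mouse 1 (0.05) lies among the vehicle mice.

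Gaps between single animals of a group were about as common in the members as in other genes, but their direction was less even. DEHP mouse 4 lay below DEHP mouse 1 for 54 members and above it for 19. Between these 2 extracts 62.5% of members were called lower and 15.3% higher (adjusted p under 0.05, limma). Over all genes it was 40.6% and 36.2%. The gap between these 2 animals exceeded the DEHP minus vehicle difference in 55 of the 73 members (75.3%) and in 79.3% of all genes tested, and the span of the 3 vehicle mice exceeded it in 64 (87.7%) and in 89.3%. A gap between single mice is not the same measure as a difference of means. For gap and span, the members' shares were near those of all genes. The median gap within DEHP was 0.26 and the median span within vehicle 0.50.

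At an unadjusted p under 0.05, 1 of the 73 members was lower in DEHP (Mrps25) and 0 were higher, where 0.348% of all genes tested were lower and 0.512% higher. Both DEHP mice lay below all vehicle mice for 4 members (5.48%), Mrps25, Mrpl11, Mrpl47 and Mrpl38, against a background of 5.22%. Both lay above for 2 members (2.74%), Mrpl2 and Mrpl43, against 3.95%. The members' shares were near those of all genes.

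The large subunit, which carries the peptidyl transferase centre, is represented by 47 tested genes, of which 37 were below 0 and 10 above, with a median of -0.16. The small subunit, which binds the messenger RNA and decodes it, is represented by 25, of which 19 were below 0 and 6 above, with a median of -0.12. Both subunits thus leaned the same way as the whole list, and none of their genes passed the test. Members with a bacterial counterpart (45 tested) had 33 below 0 and a median of -0.11, and those found only in mitochondria (27 tested) had 23 below 0 and a median of -0.16. Split by subunit as well, those with a bacterial counterpart had 20 of 29 below 0 in the large subunit (median -0.11) and 13 of 16 in the small (-0.12), and those found only in mitochondria had 17 of 18 in the large (-0.17; the exception was Mrpl43, at 0.12) and 6 of 9 in the small (-0.12). These are small groups, and no test was made between them.

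Mrps25, a small-subunit protein found only in mitochondria, had the lowest p of the members. Its value in DEHP mice 1 and 4 was -0.42 and -0.28, against -0.03, 0.43 and 0.30 in vehicle mice 1, 2 and 4. Both DEHP mice were low and the groups did not overlap, with vehicle mouse 1 closest. The difference was -0.58 (SE 0.22; 95% interval -1.13 to -0.02), with an unadjusted p of 0.0435 and an adjusted p of 1 (limma). It ranged from -0.71 to -0.48 over the alternatives. The second Mrps25 probe was not well above background in any mouse, so the value rests on 1 probe.

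Mrps16, Mrpl13 and Mrps26 had their low value in DEHP mouse 4. Mrps16, a counterpart of bacterial S16, had values of 0.17 and -0.82 in the DEHP mice (1 and 4), against -0.14, 0.40 and 0.40 in vehicle mice 1, 2 and 4. The DEHP mice lay at both sides of vehicle mouse 1, so the groups overlapped, and the difference was -0.55 (SE 0.36, unadjusted p = 0.186, limma). Mrpl13 was at 0.09 and -0.60 in DEHP mice 1 and 4 against 0.37, -0.05 and 0.18 in vehicle mice 1, 2 and 4, a difference of -0.42 (SE 0.28). Mrps26 showed the same split, with 0.13 and -0.66 in the DEHP mice against 0.10, -0.10 and 0.53, and a difference of -0.44 (SE 0.33). Without DEHP mouse 4 these 3 differences shrank to -0.05, -0.08 and -0.05.

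Mrpl11, which with Mrpl10 and Mrpl12 belongs to the stalk base where translation factors bind, was at -0.03 and -0.45 in DEHP mice 1 and 4 against 0.02, 0.24 and 0.22 in vehicle mice 1, 2 and 4. The groups did not overlap, although DEHP mouse 1 and vehicle mouse 1 lay close together. Its difference was -0.40 (SE 0.22, unadjusted p = 0.127, limma). Mrpl12 was at 0.08 and -0.14 in the DEHP mice and at 0.22, -0.28 and 0.11 in the vehicle mice, a difference of -0.05 (SE 0.24). Mrpl10 ran the other way, with -0.25 and 0.60 in the DEHP mice and 0.15, -0.41 and -0.09 in the vehicle mice, a difference of 0.29 (SE 0.33). The 3 stalk proteins thus had no common direction.

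Mrpl2, which lies close to the peptidyl transferase centre, was above the vehicle mice in both DEHP mice, at 0.06 and 0.32 against -0.12, -0.13 and -0.13. The 3 vehicle mice were nearly level (SD 0.003) and the DEHP mice were apart from each other. The difference was 0.31 (SE 0.19, unadjusted p = 0.157, limma), and 0.18 without DEHP mouse 4. With the scanner software's processed signals it was 0.61.

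Mrps36 had the most positive difference and the widest range of the 73 members, 1.59 from lowest to highest mouse. Despite its name it is a component of the 2-oxoglutarate dehydrogenase complex of the citric acid cycle and no ribosomal protein. It was at -0.17 and 0.90 in DEHP mice 1 and 4 against 0.28, -0.32 and -0.69 in vehicle mice 1, 2 and 4. DEHP mouse 4 was high and DEHP mouse 1 lay within the vehicle range, so the groups overlapped (difference 0.60, SE 0.43, unadjusted p = 0.211, limma). Mrpl1, of the stalk that handles the transfer RNA leaving the ribosome, had a like profile, with -0.32 and 0.79 in the DEHP mice and 0.44, -0.75 and -0.16 in the vehicle mice. Its difference was 0.39 (SE 0.47) and became -0.16 without DEHP mouse 4.

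Mrpl14 and Mrpl28 also ranged widely, but with DEHP mouse 4 at the bottom. Mrpl14 was at 0.42 and -0.82 in DEHP mice 1 and 4 against -0.75, 0.53 and 0.62 in vehicle mice 1, 2 and 4. DEHP mouse 4 and vehicle mouse 1 were low together, and the other 3 mice high. Mrpl28 had the same order of low and high mice, at 0.35 and -0.85 against -0.40, 0.48 and 0.42. Their differences were -0.33 (SE 0.56) and -0.42 (SE 0.46). A second, dimmer Mrpl28 probe was at 0.12 and -0.10 in the DEHP mice and 0.03, -0.19 and 0.14 in the vehicle mice. It gave a difference of 0.02 and showed neither the wide range nor this order of the mice.

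The narrowest ranges were those of Mrpl4 (0.16), Mrpl15 (0.17), Mrpl55 (0.18) and Mrps35 (0.20). The probes of Mrpl4, Mrpl15 and Mrps35 were not well above background on all arrays. For Mrpl4 and Mrpl15 the share of arrays was 0.75 in the DEHP mice and 0.83 in the vehicle mice. A narrow range of such dim probes does not show a steady level. Mrpl4 was at 0.02 and 0.06 in the DEHP mice and at -0.10, 0.05 and -0.04 in the vehicle mice. Even so, the 95% interval around its difference of 0.07 ran from -0.38 to 0.53, and the difference ranged from 0.02 to 0.32 over the alternatives. Mrps35 had a difference of 0.0003, with an interval of -0.48 to 0.48.

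**Figure D2:**
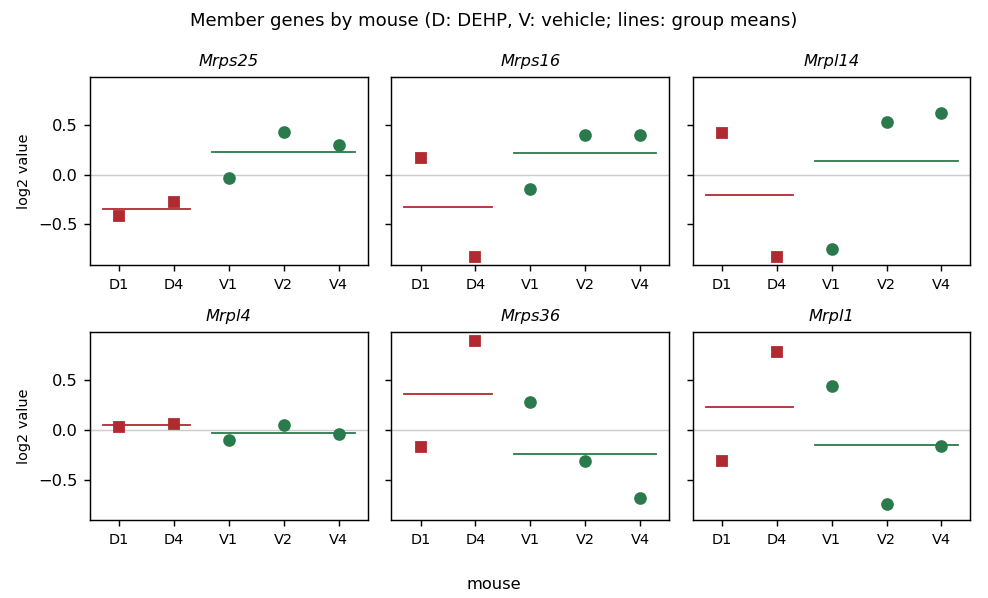
Log2 value of 6 member genes in each mouse (squares, DEHP mice; circles, vehicle mice; lines, group means). Mrps25 has both DEHP mice below the vehicle mice. Mrps16 and Mrpl14 have DEHP mouse 4 at the bottom (-0.82 in each), and Mrps36 and Mrpl1 have it at the top (0.90 and 0.79). Mrpl4, read by a dim probe, stays within 0.16.

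The 3 mitochondrial proteins related to bacterial S18 are encoded by separate genes, of which only Mrps18c was counted above as having a bacterial counterpart. Mrps18c was at 0.06 and -0.42 in DEHP mice 1 and 4 against 0.05, -0.04 and 0.36 in vehicle mice 1, 2 and 4, a difference of -0.30 (SE 0.25). Mrps18a, whose protein sits in the large subunit in spite of its name, was at -0.25 and 0.13 and at 0.36, -0.22 and -0.01, a difference of -0.11 (SE 0.26). Mrps18b was at 0.02 and 0.55 in the DEHP mice and at 0.29, -0.51 and -0.35 in the vehicle mice, a difference of 0.48 (SE 0.32, unadjusted p = 0.189, limma). None of the 3 passed, and the groups overlapped for each. The chosen Mrps18b probe lies on the plus strand of mm7, at chr17:34014613-34014672, while another passing Mrps18b probe, chr17:34018542-34018690, lies on the minus strand. It had a difference of 0.24. The files thus do not settle that the brighter probe reads the Mrps18b messenger RNA.

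Of the other members, Mrpl44, which has an RNase III-like domain, was at -0.12 and -0.14 in the DEHP mice and at -0.31, 0.26 and 0.32 in the vehicle mice (difference -0.22, SE 0.26). Both DEHP mice lay between vehicle mouse 1 and the other 2. Mrpl45, which lines the exit of the peptide tunnel and anchors the ribosome at the inner membrane, had a difference of -0.36 (SE 0.35), which became 0.15 without DEHP mouse 4. The remaining differences among the members singled out for their function were -0.20 for Mrps12, a decoding-centre protein, -0.19 for Mrpl41, -0.18 for Mrps30, another large-subunit protein with a small-subunit name, -0.17 for Mrps7 and -0.12 for Mrps22, with SE between 0.19 and 0.37.

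**Figure D3:**
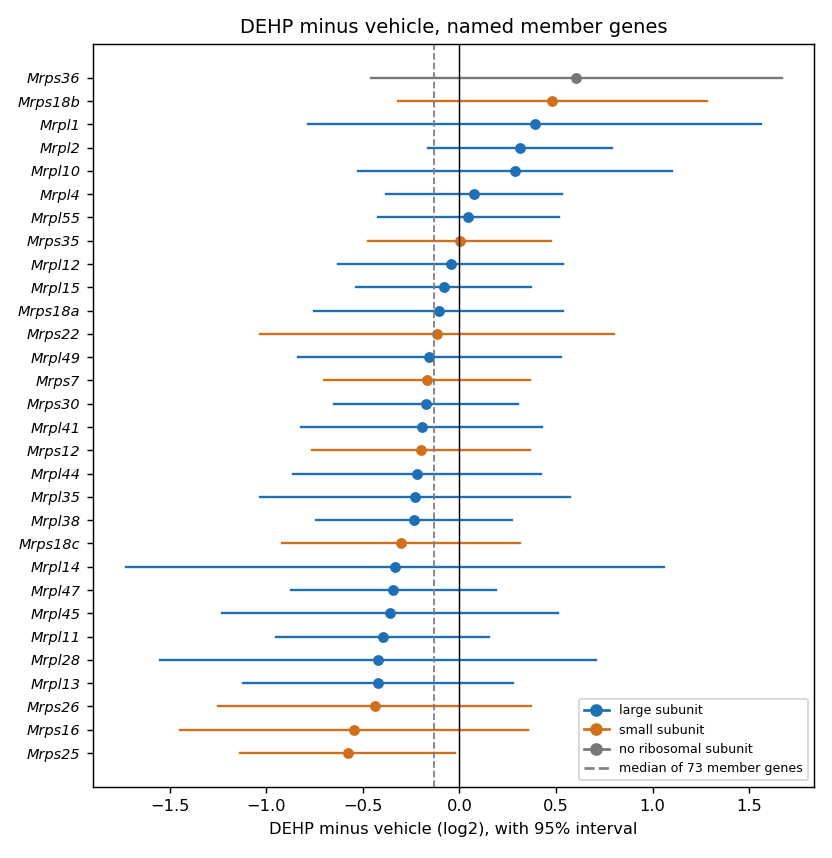
DEHP minus vehicle difference (log2) of the 30 named member genes, with its 95% interval from limma on 5 mice, coloured by ribosomal subunit; the dashed line is the median of all 73 members (-0.13). Only the interval of Mrps25 (-1.13 to -0.02) leaves out 0, before any adjustment.

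The order of the mice was not the same for all members. DEHP mouse 4 was the lowest animal for 33 members (45.21%) and vehicle mouse 2 for 25 (34.25%), against 29.89% and 20.37% of all genes tested. Vehicle mouse 4 was the highest for 28 (38.36%) and vehicle mouse 1 for 23 (31.51%), against 19.75% and 19.17% of all genes. In 19 members vehicle mouse 4 was highest and DEHP mouse 4 lowest, as for Mrps26 and Mrps18c. In 16 vehicle mouse 1 was highest and vehicle mouse 2 lowest, as for Mrps22 and Mrpl41. DEHP mouse 4 was the highest for 9 members (12.33%), against 24.97% of all genes, among them Mrps36, Mrpl1, Mrpl10, Mrps18b and Mrpl2.

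Extracts of mice in the same group differed in many members and in many other genes, and the shares were near each other in most pairs. A difference in either direction was called for 77.8% of members and 76.8% of all genes between the DEHP mice, and for 73.6% and 70.4%, 75% and 69%, and 65.3% and 56.5% in vehicle mouse 1 against 2, 1 against 4 and 2 against 4. The directions were less evenly split among the members than among all genes in each of the 4 pairs. These tests compare single extracts, not conditions, and rest on 6 pairs of dye-swapped arrays. In DEHP mouse 4 against DEHP mouse 1, 45 of 72 members (62.5%) were lower and 11 (15.3%) higher at an adjusted p under 0.05 (limma), against 40.6% and 36.2% of all genes. The members' median difference was -0.21.

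In vehicle mouse 2 against vehicle mouse 4, 41 members (56.9%) were lower and 6 (8.33%) higher, against 28.2% and 28.3% of all genes. With processed signals these were 16 and 0. In vehicle mouse 1 against vehicle mouse 4, 34 (47.2%) were lower and 20 (27.8%) higher, against 35.5% and 33.5%, and with processed signals 19 and 17. In vehicle mouse 1 against vehicle mouse 2, 31 (43.1%) were higher and 22 (30.6%) lower, against 32.7% and 37.7%, and with processed signals 28 and 10. Among the members called, vehicle mouse 4 was the higher one of both its pairs more often than the lower one, narrowly so against vehicle mouse 1 with processed signals. The share of all genes called with processed signals was not counted, so those member counts have no background beside them.

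**Figure D4:**
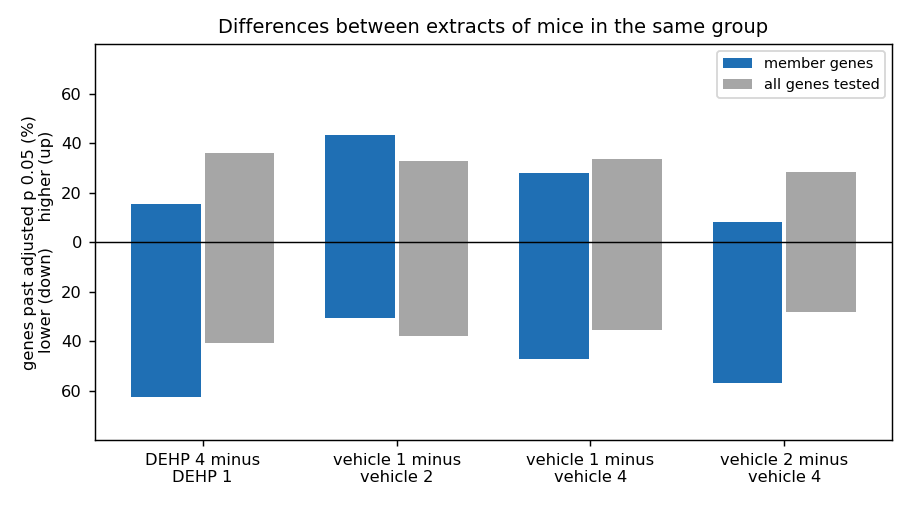
Share of the 72 member genes (blue) and of the 15798 genes tested (grey) higher (above the line) or lower (below it) at an adjusted p under 0.05 in 4 comparisons of single extracts within a group. Members are lower more often than all genes in DEHP mouse 4 against DEHP mouse 1 (62.5% against 40.6%) and in vehicle mouse 2 against vehicle mouse 4 (56.9% against 28.2%).

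Levels of cell type markers also differed between the animals, not all in the same order. The 12 Leydig cell markers had medians of 0.60 and -0.63 in DEHP mice 1 and 4 and of -0.37, 0.17 and 0.26 in vehicle mice 1, 2 and 4, with 10 of 12 differences below 0. The 19 spermatid markers had medians of -0.02 and 0.75 in the DEHP mice and of 0.28, -0.56 and -0.40 in the vehicle mice. All 19 were above 0 in DEHP minus vehicle, 3 of them at an unadjusted p under 0.05, with a median of 0.54. The 11 macrophage markers also had a low DEHP mouse 4 (median -0.71) and a low vehicle mouse 1 (-0.46). The 7 myoid markers had the same 2 animals low (-0.91 and -0.29), vehicle mouse 2 high (0.96) and a median difference of -0.86. The 12 Sertoli cell markers had 10 differences below 0, 1 of them at an unadjusted p under 0.05, but were lowest in DEHP mouse 1 (-0.17), with DEHP mouse 4 at -0.02. The 8 endothelial markers were lowest in vehicle mouse 1 (-0.52), with 6 below 0, and the 13 spermatocyte markers had 6 below 0, with DEHP mouse 1 lowest (-0.27) and DEHP mouse 4 highest (0.20). The members' median was -0.20 in DEHP mouse 4 and 0.04 in vehicle mouse 1. Single members went both ways in vehicle mouse 1. It was the lowest animal for 10 members (13.7%) and the highest for 23 (31.51%), against 19.06% and 19.17% of all genes. The part of these markers in the members' values was not tested.

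Other large protein families were also low in DEHP mouse 4. The 77 cytosolic ribosomal protein genes had 52 below 0 and a median difference of -0.17, with medians of 0.18 and -0.34 in DEHP mice 1 and 4 and of -0.06, -0.10 and 0.29 in vehicle mice 1, 2 and 4. The 36 nuclear complex I subunit genes had 26 below 0 and a median of -0.11, with medians of 0.19 and -0.23 and of -0.04, -0.04 and 0.21. In both lists 0 genes passed, and 0 were at an unadjusted p under 0.05. The low DEHP mouse 4 and the high vehicle mouse 4 were thus shared by all 3 families.

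Of the other genes of mitochondrial translation, 70 in 5 lists, 0 passed and 0 were at an unadjusted p under 0.05. The 7 further ribosomal proteins with other names had 5 below 0 and a median of -0.26. Gadd45gip1, a large-subunit protein, was at 0.30 and -0.98 in DEHP mice 1 and 4 against -0.19, 0.59 and 0.29 in vehicle mice 1, 2 and 4 (difference -0.57, SE 0.44). Mrpl58, a peptidyl-tRNA hydrolase built into the large subunit, differed by -0.51 (SE 0.47), with DEHP mouse 4 at -1.08. Mrpl57 differed by 0.06 (SE 0.23) and Mrpl42 by -0.16 (SE 0.22).

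The 23 assembly factors were split, 11 above and 12 below 0, with a median of 0.00. Slirp, an RNA-binding protein that protects mitochondrial messenger RNAs, differed by 0.33 (SE 0.21), and Malsu1, an assembly factor of the large subunit, by -0.35 (SE 0.23). Both DEHP mice lay above all vehicle mice for Slirp and Eral1, and below them for 0 assembly factors. Over all genes tested 3.95% lay above and 5.22% below. Of the 11 translation factors 7 lay below 0, the lowest p being that of Mtrf1l, a release factor (-0.33, SE 0.28), and Gfm1, an elongation factor (-0.20, SE 0.19). For Gfm1 and Taco1, another gene of that list, both DEHP mice lay below all vehicle mice. Of the 18 mitochondrial aminoacyl-tRNA synthetases and related genes 11 lay below 0. Here both DEHP mice lay below all vehicle mice for Rars2 and Sars2, and above them for Cars2. Rars2, the arginyl enzyme, was below all vehicle mice in both DEHP mice, at -0.24 and -0.22 against 0.14, 0.05 and 0.27 (difference -0.38, SE 0.19, unadjusted p = 0.091, limma), and Yars2 differed by -0.44 (SE 0.27).

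Among 11 genes of mitochondrial DNA transcription and its nuclear regulators, 7 lay below 0. Tfam, which packages mitochondrial DNA and starts its transcription, was at 0.44 and -1.14 in DEHP mice 1 and 4 against -0.23, 0.43 and 0.50 in vehicle mice 1, 2 and 4 (difference -0.59, SE 0.51). Gabpa, the DNA-binding part of nuclear respiratory factor 2, was at -0.07 and -0.41 and at -0.37, 0.35 and 0.49 (difference -0.40, SE 0.32). The groups overlapped for both.

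Of the 24 members with at least 2 passing probes, probes differed by less than 0.2 in 10 and by more than 0.5 in 5, in the DEHP minus vehicle difference. Mrps7 (0.01 apart) and Mrps18c (0.02 apart) were among the former. The 5 were Mrpl35, Mrpl38, Mrpl47, Mrpl49 and Mrps36, and for each of these the value above depends on which probe stands for the gene. The probe sequences of Mrpl38 and Mrpl47 are shown because the 2 probes of each gene ordered the mice differently. They are 60 bases long, as deposited, on the sense strand, with positions on mouse assembly mm7; no part is set in capitals.
Mrpl38 brightest probe: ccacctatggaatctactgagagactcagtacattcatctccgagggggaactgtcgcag
Mrpl38 other probe: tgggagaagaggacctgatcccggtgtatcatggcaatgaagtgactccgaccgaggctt
Mrpl47 brightest probe: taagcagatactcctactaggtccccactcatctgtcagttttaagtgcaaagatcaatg
Mrpl47 other probe: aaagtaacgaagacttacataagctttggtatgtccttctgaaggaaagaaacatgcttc

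The brightest Mrpl38 probe (chr11:116240999-116241058, minus strand) was at -0.07 and -0.21 in DEHP mice 1 and 4 against -0.07, 0.27 and 0.08 in vehicle mice 1, 2 and 4. The other, which spans 462 genomic bases (chr11:116243547-116244008) and so is split by a gap in its alignment, was at 0.03 and 0.53 and at 0.36, -0.72 and -0.20. The first gave a difference of -0.23 and the second 0.47, and only with the first were both DEHP mice below all vehicle mice, narrowly. With the mean of both probes Mrpl38 was at 0.12.

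The brightest Mrpl47 probe (chr3:32534517-32534576, minus strand) was at -0.13 and -0.28 in the DEHP mice and at 0.12, -0.05 and 0.35 in the vehicle mice, a difference of -0.34. The other spans 2392 genomic bases (chr3:32539992-32542383), was at -0.26 and 0.57 and at 0.55, -0.74 and -0.11, and gave 0.26. With the mean of both probes Mrpl47 was at -0.04. Of the 4 members whose DEHP mice lay below all vehicle mice, these 2 therefore had a second probe with the opposite sign.

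Mrpl35 had a probe at 0.67 (0.00 and 0.80 in the DEHP mice; 0.02, -0.73 and -0.09 in the vehicle mice) and a pair at -0.23 and -0.24. Mrpl49 had a probe at 0.42 and a pair at -0.16 and -0.24. For Mrps36 the brightest probe gave 0.60, and the second, 2607 bases away on chr13, gave -0.01, with 0.17 and -0.18 in the DEHP mice and -0.02, -0.05 and 0.08 in the vehicle mice. In each of the 5 genes, the probe with the more positive difference had DEHP mouse 4 as its highest animal. The wide range of Mrps36 was thus not seen with its second probe.

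**Figure D5:**
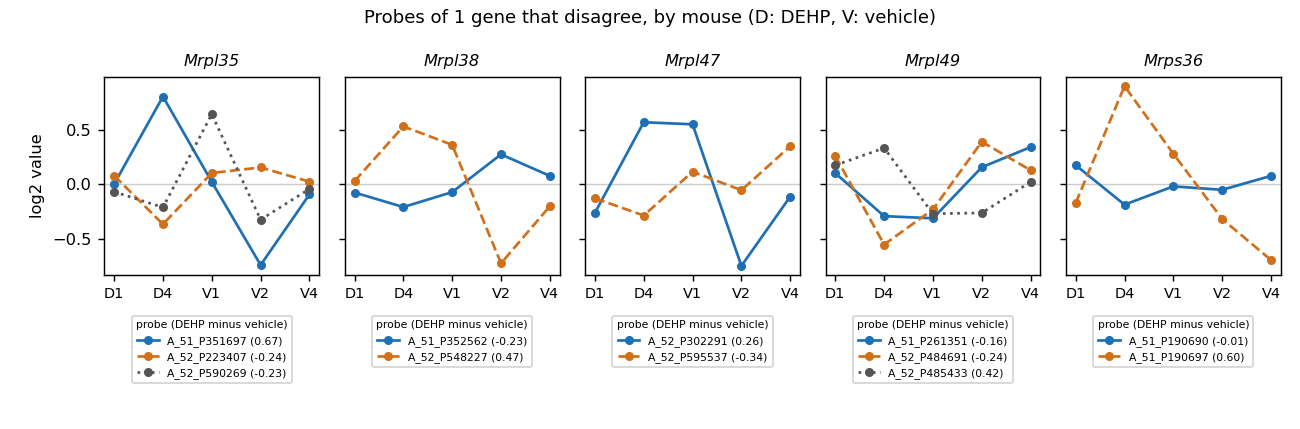
Log2 value in each mouse for every passing probe of the 5 member genes whose probes differ by more than 0.5 in DEHP minus vehicle (difference in the legend). In each gene the probe with the most positive difference, such as 0.67 in Mrpl35 and 0.60 in Mrps36, is highest in DEHP mouse 4.

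Promoters of 66 of the 75 member genes were in the RefSeq table used (72 promoters, build GRCm38.p6, 250 bases before to 50 bases after the start site). Each was searched on both strands for 4 motifs of factors known from promoters of mitochondrial protein genes. The ETS motif CCGGAAG, bound by Gabpa among others, was in 24 of 72 (33.3%), against 15.1% of 13574 promoters of genes tested and 8.86% of all 32851. The YY1 motif AAGATGGC was in 11 (15.3%), against 3.99% and 2.75%, and the NRF1 motif GCATGCGC in 8 (11.1%), against 4.63% and 2.71%. The CCAAT box was in 29 (40.3%), against 37.8% and 37.4%. In no member promoter did an ETS and a YY1 match overlap. A match describes letters and shows no binding.

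Differences between DEHP and vehicle mice were set beside these motifs. Members with an ETS match in a promoter had a median of -0.16 and those without one -0.16, and for YY1 the medians were -0.16 and -0.15. For the CCAAT box they were -0.19 and -0.11. Below 0 lay 18 of 23 tested members with an ETS match and 32 of 41 without. For YY1 it was 10 of 10 against 40 of 54, and for the CCAAT box 24 of 26 against 26 of 38. The 7 tested members with an NRF1 match had a median of 0.07, with 4 above 0, against -0.16 in the 57 without. These are few genes and no test was made.

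The 250 bases before the start site are shown for Mrps25, the member of lowest p, and for Mrps18a and Mrps22, 2 named members with an ETS match there, all with no other gene reaching into the window; capitals mark the ETS motif (CCGGAAG) and the CCAAT box (CCAAT, or ATTGG on the other strand).
Mrps25, chr6:92184024-92184273, minus strand: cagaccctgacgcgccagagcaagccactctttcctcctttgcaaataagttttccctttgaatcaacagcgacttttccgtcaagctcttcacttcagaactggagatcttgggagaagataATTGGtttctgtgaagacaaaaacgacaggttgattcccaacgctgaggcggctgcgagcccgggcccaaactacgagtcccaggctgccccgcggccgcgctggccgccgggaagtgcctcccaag
Mrps18a, chr17:46110754-46111003, plus strand: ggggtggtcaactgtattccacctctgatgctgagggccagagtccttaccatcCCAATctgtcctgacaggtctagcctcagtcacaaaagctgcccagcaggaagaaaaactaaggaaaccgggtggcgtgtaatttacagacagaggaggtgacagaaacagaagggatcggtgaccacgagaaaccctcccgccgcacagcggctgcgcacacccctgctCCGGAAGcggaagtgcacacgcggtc
Mrps22, chr9:98601680-98601929, minus strand: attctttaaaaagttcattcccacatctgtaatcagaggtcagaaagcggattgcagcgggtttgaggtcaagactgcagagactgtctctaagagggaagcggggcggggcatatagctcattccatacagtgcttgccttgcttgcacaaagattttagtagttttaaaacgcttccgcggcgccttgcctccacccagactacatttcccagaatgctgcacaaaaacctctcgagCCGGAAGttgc

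The Mrps25 window holds a CCAAT box on the other strand and none of the other 3 motifs. Mrps18a and Mrps22 carry the ETS motif close to the start site. Vehicle mouse 1 was highest in both (0.36 and 0.51), but the lowest was DEHP mouse 1 for Mrps18a (-0.25) and vehicle mouse 2 for Mrps22 (-0.62). Members with an ETS match did not share an order of the mice. Mrps16 and Mrps26 were highest in vehicle mouse 4 and lowest in DEHP mouse 4, and Mrps18b was highest in DEHP mouse 4. In 31 of the 66 genes (47%) another gene reached into the 250 bases, against 28.2% of 10703 tested genes. Mrps11 and Mrpl46 face each other this way. Both were highest in vehicle mouse 1 (0.20 and 0.53) and lowest in vehicle mouse 2 (-0.31 and -0.46), as were 16 of the 73 members. Mrps12 shares its window with Sars2, the mitochondrial seryl-tRNA synthetase (DEHP minus vehicle -0.10, SE 0.18), and Mrpl43 with Twnk, the mitochondrial DNA helicase (0.03, SE 0.22). These pairs did not share an order of the mice. Vehicle mouse 2 was lowest for Mrps12 (-0.20) and highest for Sars2 (0.09). DEHP mouse 4 was highest for Mrpl43 (0.10) and lowest for Twnk (-0.18).

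Slide and vehicle mouse cannot be told apart in part, since vehicle mouse 4 was hybridised only on slide 3 and vehicle mice 1 and 2 only on slides 1 and 2. Within slide 1 the members' median difference was -0.07 with 29 members above 0, within slide 2 it was -0.10 with 25 above, and within slide 3 it was -0.22 with 11 above. The median was below 0 on each slide, but all 3 slides carry the same 2 DEHP mice and do not repeat the result in other animals. In DEHP mouse 1 against vehicle mouse 2 the member median was above 0 on slides 1 and 2 (0.11 and 0.10). The 2 dye orientations of a pair of mice gave member medians that differed by at most 0.06. Across the member genes of a pair, the 2 orientations correlated at r = 0.67 to 0.92 in 5 pairs and at 0.33 in DEHP mouse 1 against vehicle mouse 4, a description over genes, which are not independent.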

How the data were processed

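Members, gene lists and tests were chosen with earlier results of these data known. Per the file headers, the scanner files were written by Agilent's Feature Extraction (version 9.5.1.1) and hold, for both channels of a spot, its mean intensity and the median intensity of its surroundings; probe positions are on mm7. They also hold the software's processed intensity, its log10 ratio of red over green (used to check directions) and flags of 0 or 1, all as deposited. The deposited value table gives the authors' log2 ratios for 13669 spots. Its rows were matched to spots by their place in the scanner files, its columns ran as DEHP over vehicle and correlated with the scanner's ratios at r = 0.915 to 0.993, with medians from -0.06 to 0.00, while how it was normalized and filtered is unknown. Of the tools used by the authors, only limma is named in the submitters' processing notes (no version).

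Computed here (R 4.3.3, limma 3.58.1): normexp background correction (offset 50), loess within arrays, and removal of control and outlier-marked spots. For each probe, least squares on 12 log2 ratios gave 1 value per mouse, with the dye as a further term. Probes had to be well above background in 2 or more mice, each time on 50% or more of that mouse's arrays (21186 of 41174 probes), and the brightest one stood for its gene. The test between groups was lmFit and eBayes over the 5 mice, with p-values from limma adjusted by Benjamini-Hochberg over all genes. Extracts within a group were compared on 6 means of dye-swapped arrays, for genes with all 6 (72 members; Mrps23 lacked a pair). The mouse is the replicate, and the number of arrays limits the precision. The functions were tested on simulated data. Of the genes with a value, 10546 were named by RefSeq accession, 1894 by current symbol, 971 by an older symbol and 2415 as in the file.

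Named members were the 8 of lowest p, the 5 most positive and 5 most negative differences, the 4 widest and 4 narrowest ranges, genes with probes over 0.5 apart, members without a passing probe, 12 chosen for their function, and 2 of lowest p per related list; other genes were named after their values were seen. Alternatives covered background, normalization, filter, probes, dye, slide, unit of replication, pairing, left-out mice and the value table.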

Additional observations from a re-analysis of the deposited data

Results flagged for a closer look

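One array stood apart in its group of 6 with DEHP RNA in Cy5. In DEHP mouse 1 against vehicle mouse 4 the median DEHP minus vehicle log2 ratio over all genes was 0.0833, against 0.01 to 0.04 on the other 5. Of several array measures checked in both orientations, only this one passed a limit that independent values pass in about 1 of 20 groups. Several measures were checked and the 6 arrays share animals, so that rate does not hold here. The member median on that array was -0.07, and -0.11 in the opposite orientation. The same pair had the lowest correlation of member values between its orientations (r = 0.33 across genes).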

How the results depend on the processing

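The count of 0 members at an adjusted p under 0.05 held in every alternative with animals as replicates. With the 12 arrays taken as independent, 2121 genes and 10 members passed, in a fit that counts repeated arrays of an animal as animals. The members' median stayed below 0 in all alternatives that kept both DEHP mice, from -0.22 to -0.07. Leaving out 1 mouse at a time gave medians from -0.25 to 0.0147 and 15 to 38 members above 0, without a member passing (0 in each). Members above 0 numbered 29 on slide 1 alone and 11 on slide 3 alone. Deviations of same-numbered mice from their group means correlated at r = -0.73 and -0.56 over 15825 genes. With 2 DEHP mice, their deviations mirror each other by construction, so these values cannot settle whether the number pairs animals. With the mouse number as a replicate block the median was -0.19, with 15 members above 0, 0 passing and 0 at an unadjusted p under 0.05.

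Counts between extracts fell with processed signals, to 10 lower in vehicle mouse 1 minus 2, to 19 lower in vehicle mouse 1 minus 4, and to 0 higher and 16 lower in vehicle mouse 2 minus 4. The 6 higher in that last comparison were 3 without background correction, 3 without a filter and 3 with the mean of probes. The share of all genes called was not counted in these alternatives. A fall over all genes therefore cannot be told apart from a fall in the members. The cause was not tested. Signal over background limits Mrpl9, Mrps27 and the 19 failing probes.

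A dye effect per slide could not be fitted, since slides 1 and 2 each hold 1 orientation. In its place, after the data were seen, 1 effect for slides 1 and 2 and another for slide 3 was used, with a median of -0.13 and 17 above 0.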
